A study of Homo sapiens with 50 samples.

Results

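HMOX1 and 9 genes that belong to the oxidative stress pathway of the transcription factor NRF2 were followed across human lung carcinoma cells exposed directly or as bystanders to alpha particles. The members were the array probes, control spots aside, named HMOX1, NQO1, GCLM, GCLC, TXNRD1, SRXN1, SLC7A11, MAFF, MAFG or NFE2L2. These 10 genes, of 25940 gene names on the array, had 11 probes on 29 spots, of 34127 probes on 43118 spots in all. MAFG had 2 probes, and HMOX1 and MAFF had 10 spots each.

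RNA was taken 4 h after treatment from the human line H1299, derived from a non-small cell lung carcinoma, and from H1299shRAD9, the same line carrying a retroviral vector that expresses a short hairpin RNA against the DNA damage response gene RAD9. Each line gave 5 groups of 5 samples, 50 one-colour arrays in all. The control (CTL) cells were sham irradiated with 0 Gy, and the cells of the other 4 groups came from concentric dishes in which the directly irradiated part received 1 Gy of 4He ions. Directly irradiated cells are called DBP or DBN and the neighbouring bystander cells BP or BN, according to whether the bystanders were positive (P) or negative (N) for the formation of micronuclei, small nuclear fragments left by chromosome damage. The H1299shRAD9 cells were puromycin-selected stable transfectants, of which 2 were used interchangeably, and which of them gave a sample is not in the labels. The H1299 cells were untransfected. Differences between the lines therefore cannot tell RAD9 reduction apart from the vector or the puromycin selection. All levels below are log2 intensities relative to the median of their array, so they compare a probe between arrays and not one gene with another.

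On the RAD9A probe the controls stood at 3.65 ± 0.19 in H1299shRAD9 and 4.01 ± 0.13 in H1299 (SD, n = 5 each; exact 2-sided permutation p = 0.0159). KRT8, KRT18 and VIM, looked at as genes present in H1299, were well above background on 50 of 50 arrays. The endothelial marker PECAM1 and the hepatocyte marker ALB were so on only 2 and 3 arrays, whereas the probes for the leukocyte gene PTPRC, the T cell gene CD3E and the alveolar surfactant gene SFTPC were so on 50, 38 and 48. Per array, 55.2 to 83.3% of probes were well above background and the median processed intensity lay between 68.4 and 343.6.

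NRF2, the product of NFE2L2, is held in the cytoplasm by KEAP1 and degraded. Oxidants and electrophiles release it, and in the nucleus it pairs with a small MAF protein such as MAFF or MAFG and binds antioxidant response elements. Its targets make and recycle glutathione and thioredoxin. HMOX1, which encodes heme oxygenase 1, the enzyme that breaks heme down to biliverdin, carbon monoxide and iron, is one of the most inducible of these targets and is also held down by the repressor BACH1.

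The probes that measured the members with the clearest differences are shown by their first 30 bases. Each reads 5′ to 3′ along the transcript, with hg19 coordinates and strand from the array files, which give no exon or UTR annotation.
HMOX1, chr22:35790122-35790151, plus strand: tggggagggaggtgtttaacggcactgtgg
SRXN1, chr20:627593-627622, minus strand: gttcaataataaggacaagagcttttccca
TXNRD1, chr12:104732949-104732978, plus strand: aaatgctggagaagttacacaaggctttgc
SLC7A11, chr4:139085463-139085492, minus strand: gaagtaagtgtgtttgttttcatcttatgg
MAFF, chr22:38611984-38612013, plus strand: ctccctgggaaaagtggcgtatggccctga
In a search for shared runs of 20 or more bases among all 34127 probes, none of these 5 probes shared a run with another probe. Of the other member probes only that of GCLM did, with a probe for CYP2W1.

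Antioxidant response elements were looked for as TGACNNNGC on either strand in the RefSeq windows of GRCh38.p14 that run from 250 bases before to 50 after a gene start. The pattern overlaps the AP-1 site where its N bases begin with TCA. Windows were found for 8 of the 10 members, 11 windows in all, and HMOX1 and SLC7A11 had none in the table. The pattern occurred in 4 of these 11 windows, those of GCLM, TXNRD1 (both starts) and MAFF (the upstream start), and in 13.3% of all 35116 windows. The 150 bases before the start are printed for these 4 and for SRXN1, the member closest to HMOX1 in its levels, whose window held none; capitals mark the pattern.
GCLM, chr1:93909431-93909580, minus strand: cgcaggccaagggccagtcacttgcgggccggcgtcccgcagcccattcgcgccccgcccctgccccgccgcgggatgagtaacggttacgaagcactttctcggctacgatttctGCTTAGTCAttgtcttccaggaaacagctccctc
TXNRD1, upstream start, chr12:104215629-104215778, plus strand: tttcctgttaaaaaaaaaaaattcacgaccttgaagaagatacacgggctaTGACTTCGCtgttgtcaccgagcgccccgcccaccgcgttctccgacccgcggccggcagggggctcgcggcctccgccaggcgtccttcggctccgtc
TXNRD1, downstream start, chr12:104286882-104287031, plus strand: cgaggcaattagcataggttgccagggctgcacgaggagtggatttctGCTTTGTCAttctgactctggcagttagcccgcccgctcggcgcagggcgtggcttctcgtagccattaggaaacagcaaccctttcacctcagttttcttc
MAFF, upstream start, chr22:38201844-38201993, plus strand: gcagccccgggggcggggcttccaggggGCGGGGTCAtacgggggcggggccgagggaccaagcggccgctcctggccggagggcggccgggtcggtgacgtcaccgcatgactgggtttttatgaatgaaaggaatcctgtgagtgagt
SRXN1, chr20:653201-653350, minus strand: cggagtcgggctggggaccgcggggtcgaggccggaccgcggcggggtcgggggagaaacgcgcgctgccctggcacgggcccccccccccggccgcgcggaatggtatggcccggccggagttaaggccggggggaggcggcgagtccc
A further match at the upstream TXNRD1 start lies across the end of the printed stretch. The arrays measure transcripts only, so these matches describe letters in the windows.

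All 11 member probes passed the background criterion, since each was well above background on 50 arrays except SLC7A11 at 49, where the spot of H1299shRAD9 BP replicate 3 was left out as an outlier. None was saturated. The second MAFG probe varied too little between arrays and was not tested, which left 10 member probes among the 12186 features tested with limma. A feature was called where p was under 0.006 (under 0.005 between the cell lines) and the Benjamini-Hochberg adjusted p over all tested features was under 10%.

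HMOX1 was higher than in the matched sham-irradiated cells in all 4 exposed groups of both lines, in directly irradiated and in bystander cells. The group means differed by 1.92- to 2.64-fold in H1299shRAD9 and by 1.37- to 1.61-fold in H1299. It passed the test in 1 of the 8 comparisons, that of H1299shRAD9 DBN with CTL. In RNA from whole cultures, a higher level in every cell and a larger share of cells with a high level cannot be told apart.

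In H1299shRAD9 controls the HMOX1 levels of replicates 1 to 5 were 5.10, 4.77, 6.25, 6.32 and 5.97. In DBP cells they were 5.70, 5.73, 9.57, 7.30 and 7.10, and in BP cells 5.92, 5.57, 8.82, 6.67 and 6.81. Replicates 1 and 2 were the low ones in these groups, controls included, and replicate 3 was far above the rest in DBP and in BP. In DBN cells the levels were 6.03, 5.91, 8.08, 6.94 and 8.02, and in BN cells 5.59, 5.77, 7.20, 6.84 and 7.74. Every exposed group overlapped the controls in level, yet each exposed sample lay above the control of its own number.

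In H1299 controls HMOX1 stood at 4.93, 5.57, 5.63, 5.55 and 6.01. The DBP cells gave 5.48, 6.49, 6.16, 6.60 and 6.42, and the BP cells 6.22, 6.002, 5.74, 6.22 and 6.16. These levels lay closer together than those of H1299shRAD9. The DBN cells gave 5.90, 6.35, 5.92, 6.27 and 6.39, and the BN cells 5.62, 6.26, 5.78, 6.17 and 6.16. Here too the groups overlapped and each exposed sample was above the control of its own number.

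**Figure D1:**
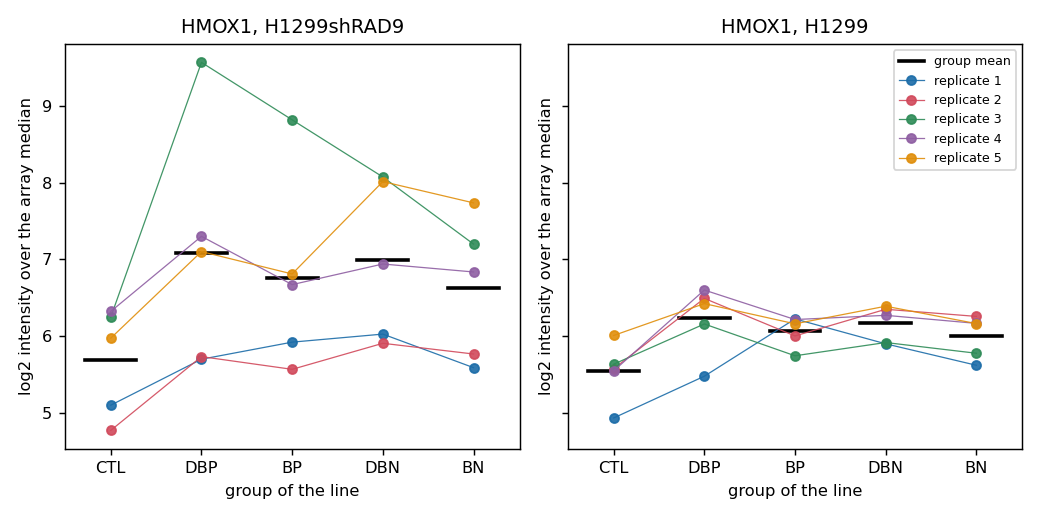
HMOX1 level on each of the 50 arrays (vertical axis, log2 intensity over the array median) in the 5 groups of H1299shRAD9 (left) and H1299 (right). Points are samples, lines join samples of the same replicate number, and black bars are group means; H1299shRAD9 DBP replicate 3 was highest at 9.57, and every exposed sample lies above the CTL sample of its number.

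Compared with controls in H1299shRAD9, HMOX1 differed by a log2 value of 1.40 (SE 0.36) in DBP, by 1.08 (SE 0.28) in BP, by 1.31 (SE 0.21) in DBN and by 0.94 (SE 0.19) in BN, with limma adjusted p of 0.129, 0.137, 0.0423 and 0.156. Among all 12186 features its difference ranked 4, 10, 5 and 53, counted from the largest increase down. It was higher in 5 of 5 pairs in each of these comparisons, which share the 5 controls of the line. An exact sign-flip test of 5 pairs cannot go below p = 0.0625, the value HMOX1 had each time.

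The DBN call rested on the pairing of replicate numbers. Without the pairing the adjusted p of HMOX1 in DBN was 0.308 (limma), and leaving out replicate 2 or replicate 3 gave 0.123 or 0.153. Without replicate 3, the highest array, the difference was 0.92 in DBP and 0.70 in BP, and in BP the adjusted p was then 0.0716, which passes. On slides that held both groups the HMOX1 difference was 1.02 and 1.13 for DBP, 0.39 and 0.84 for BP, 1.09 for DBN and 0.65 and 1.77 for BN. The values 1.13, 0.84 and 1.77 are the differences of replicate 5 itself. All reuse the same control arrays, so they are no further evidence.

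In H1299 the HMOX1 differences were 0.69 (SE 0.16) in DBP, 0.53 (SE 0.21) in BP, 0.63 (SE 0.23) in DBN and 0.46 (SE 0.13) in BN. The limma adjusted p values were 0.383, 0.779, 1 and 0.999, and the unadjusted ones 0.00179, 0.0309, 0.0195 and 0.00782. Counted from the largest increase down, HMOX1 stood at 38, 287, 147 and 89 of 12186. Slides that held both groups gave 13 differences, from 0.14 to 1.42. They share the 5 control arrays, and 11 of them are differences of same-numbered samples already given above, so they are no further evidence.

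The difference of HMOX1 from controls was larger in H1299shRAD9 than in H1299 by 0.71 (SE 0.42) for DBP, 0.55 (SE 0.38) for BP, 0.68 (SE 0.30) for DBN and 0.49 (SE 0.24) for BN. These interactions of cell line and exposure had limma adjusted p of 0.611, 0.733, 0.493 and 0.683, so none passed. Of all tested features 0% were called in each of the 4 interactions, and 8.65, 6.98, 9.07 and 7.79% had unadjusted limma p under 0.05. Among the members, unadjusted limma p was under 0.05 for TXNRD1 in the DBP interaction (0.79, SE 0.34; exact permutation p = 0.0952) and for HMOX1 in that of DBN (exact permutation p = 0.0556).

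Ordered by group mean, HMOX1 ran from H1299shRAD9 DBP at 7.08 ± 1.58, DBN at 6.99 ± 1.04, BP at 6.76 ± 1.26 and BN at 6.63 ± 0.93 to H1299 DBP at 6.23 ± 0.45, DBN at 6.17 ± 0.24, BP at 6.07 ± 0.20 and BN at 5.996 ± 0.28, with the controls last at 5.68 ± 0.71 in H1299shRAD9 and 5.54 ± 0.39 in H1299 (SD, n = 5 each). Neighbours in this order were closer than the SD of either group, apart from H1299 BN and the H1299shRAD9 controls, 0.31 apart. The 10 HMOX1 spots of an array had a median SD of 0.047, far below the spread between samples.

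Beside HMOX1, SRXN1, TXNRD1, SLC7A11 and MAFF stood above the controls in the H1299shRAD9 groups, while MAFG, NFE2L2, GCLM, GCLC and NQO1 stayed near them. Of the 10 tested members, HMOX1 and MAFF were called in DBN, 2 in all and both higher, and 0 in DBP, BP and BN. Of all tested features 1.78, 2.34, 4.85 and 0.0492% were called in the DBP, BP, DBN and BN comparisons. Unadjusted p was under 0.05 for 5 members in each of these comparisons, always HMOX1, SRXN1, TXNRD1, SLC7A11 and MAFF, beside 15.2, 12.6, 16.7 and 14.3% of all features. In the same order the median member difference was 0.34, 0.25, 0.26 and 0.30, against medians of all features between -0.02 and 0.02.

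**Figure D2:**
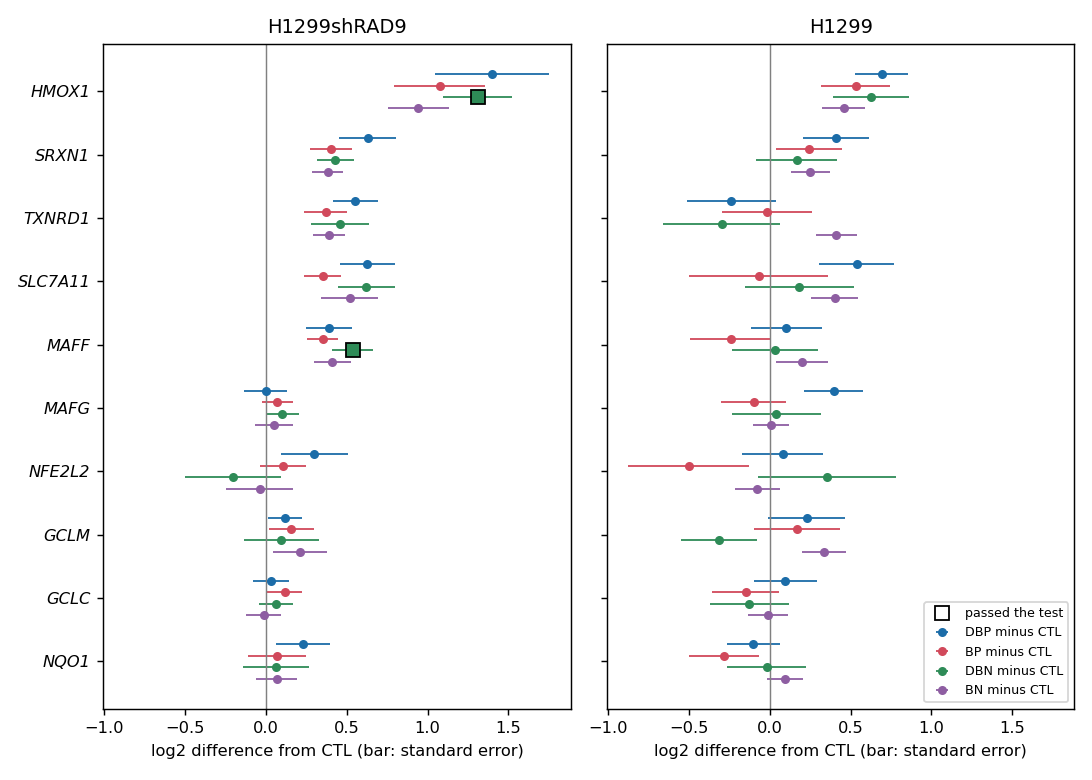
Difference of each exposed group from the controls of its line (horizontal axis, log2; bars are limma standard errors) for the 10 tested members in H1299shRAD9 (left) and H1299 (right). Squares mark the 2 differences that passed the test, HMOX1 at 1.31 and MAFF at 0.54 in H1299shRAD9 DBN; in that line the top 5 genes lie right of 0 in all 4 groups.

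MAFF, a small MAF partner of NRF2 with no activation domain of its own, measured 1.53, 1.85, 3.10, 2.91 and 2.92 in the H1299shRAD9 controls. In the DBN cells it measured 2.36, 2.12, 3.50, 3.26 and 3.76. As with HMOX1, replicates 1 and 2 were low in both groups, which overlapped, and each DBN sample was above its control. The difference was 0.54 (SE 0.13, 1.45-fold, limma adjusted p = 0.0795). Leaving out any 1 of the 5 replicates ended this call (adjusted p from 0.138 to 0.214), as did dropping the pairing (0.828). In DBP, BP and BN the MAFF differences were 0.39, 0.35 and 0.41 with adjusted p of 0.247, 0.149 and 0.196 (limma).

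SRXN1, sulfiredoxin, restores over-oxidised peroxiredoxins. Its levels in the H1299shRAD9 controls were 5.97, 5.79, 6.16, 6.33 and 6.30. In the DBP cells they were 6.01, 6.39, 7.57, 6.95 and 6.79. The gain over the matched control was smallest in replicate 1, 0.04, and largest in replicate 3, 1.40. SRXN1 differed by 0.63 (SE 0.18) in DBP, 0.40 (SE 0.13) in BP, 0.43 (SE 0.11) in DBN and 0.38 (SE 0.10) in BN, with limma adjusted p of 0.163, 0.241, 0.102 and 0.169. It was higher in 5 of 5 pairs each time.

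TXNRD1 encodes thioredoxin reductase 1, which keeps thioredoxin reduced. It measured 2.15, 2.04, 2.43, 2.79 and 2.61 in the H1299shRAD9 controls and 2.26, 2.75, 3.45, 3.28 and 3.05 in the DBP cells. Only the DBP values of replicates 1 and 2 lay within the range of the controls. The differences were 0.55 (SE 0.14) in DBP, 0.37 (SE 0.13) in BP, 0.46 (SE 0.18) in DBN and 0.39 (SE 0.10) in BN, none of them called (lowest limma adjusted p = 0.125).

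SLC7A11 is the cystine importer that feeds glutathione synthesis. In the H1299shRAD9 controls it stood at 3.45, 3.54, 3.73, 4.24 and 3.43. In the DBN cells it stood at 4.09, 3.80, 4.63, 4.31 and 4.66, so only the control of replicate 4 reached into their range. The differences in DBP, BP, DBN and BN were 0.63, 0.35, 0.62 and 0.52 (lowest limma adjusted p = 0.123). The BP value came from 4 pairs because the spot of replicate 3 was left out.

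GCLC and GCLM, the catalytic and modifier subunits of the enzyme that starts glutathione synthesis, differed from the H1299shRAD9 controls by -0.01 to 0.11 and by 0.09 to 0.21. NQO1, a quinone reductase that is a standard readout of NRF2, differed by 0.06 to 0.23, and MAFG by -0.002 to 0.10 on its tested probe. NFE2L2 itself, whose product is controlled mainly by protein stability, differed by -0.20 to 0.30. Its probe was weak, with a mean level of -0.14 over the 50 arrays, below the array median. Unadjusted p for these 5 genes was at least 0.188 (limma). The untested MAFG probe differed by 0.20 to 0.33, with exact sign-flip p from 0.0625 to 0.125.

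In H1299, calls among the members were 0 in DBP, BP, DBN and BN, where 0.0574, 0, 0.0164 and 0% of all tested features were called by limma. Unadjusted p was under 0.05 for HMOX1 and SLC7A11 in DBP, for HMOX1 in BP, for HMOX1 in DBN, and for HMOX1, GCLM, TXNRD1 and SLC7A11 in BN. Of all features, 6.27, 5.84, 3.45 and 2.77% had unadjusted limma p under 0.05 in DBP, BP, DBN and BN. SRXN1 differed by 0.17 to 0.41. TXNRD1 stood 0.41 (SE 0.13) above the controls in BN, but differed by -0.24 in DBP, -0.02 in BP and -0.30 in DBN. In those 3 groups its replicate 2 array was low, at 1.65, 1.69 and 0.74, where the controls measured 2.84, 2.88, 2.23, 2.50 and 2.77. Replicate 1 also lay below its control in these groups, at 1.81 in DBP, 2.69 in BP and 2.25 in DBN.

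The members with HMOX1-like levels were also sought without reference to the groups. Over the 50 arrays and 9211 genes, SRXN1 had the highest correlation with HMOX1 (r = 0.839), followed by ZFP36, PVT1, FOSB and SNAI1 (r from 0.770 to 0.805). FOSB and ZFP36 are early response genes, and SNAI1 encodes a repressor of epithelial genes. The points share line, replicate culture and slide, so these values describe the arrays. Within the 25 H1299shRAD9 arrays the correlation with HMOX1 was 0.950 for SRXN1, 0.874 for MAFF and 0.867 for TXNRD1, and over the 24 with a value 0.805 for SLC7A11. Within the 25 H1299 arrays it was 0.597 for SRXN1, 0.25 for MAFF and -0.02 for TXNRD1. A list of 16 targets of the stress factor ATF4, with ATF4 itself counted among the 16, was also averaged. This mean likewise had r = 0.929 with HMOX1 in H1299shRAD9, above MAFF and TXNRD1, and -0.095 in H1299. A mean of 16 genes and a single probe are unlike measures, so these r values do not rank how closely each follows HMOX1.

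**Figure D3:**
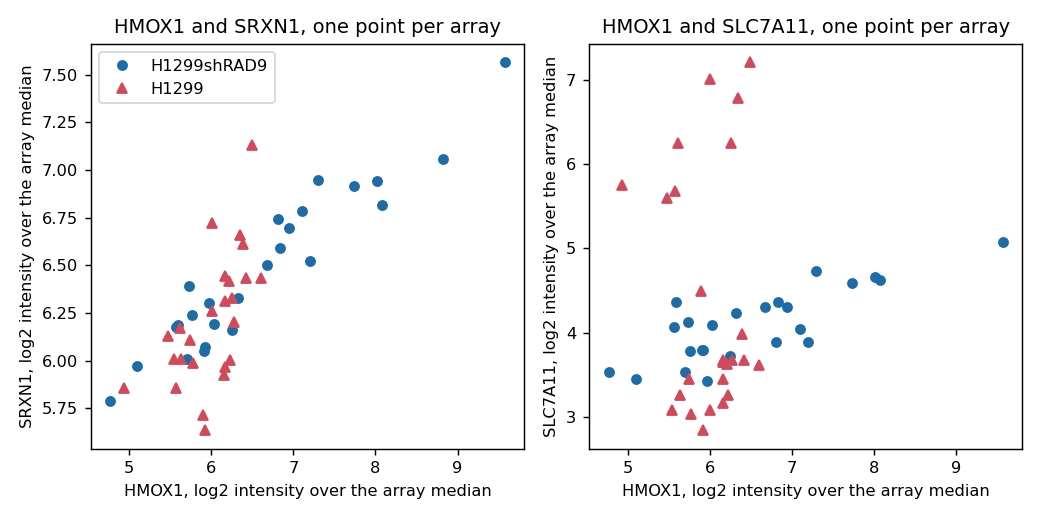
HMOX1 level (horizontal axes) against SRXN1 (left) and SLC7A11 (right), all as log2 intensity over the array median, 1 point per array. SRXN1 was high on the H1299shRAD9 arrays where HMOX1 was high (r = 0.950), while SLC7A11 in H1299 split into arrays above and below a level of 5 at like HMOX1 levels.

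SLC7A11 in H1299 did not follow HMOX1. Its control levels were 5.75, 5.69, 3.26, 3.08 and 3.08, those of DBP 5.60, 7.21, 3.44, 3.61 and 3.67, and those of BP 3.26, 7.01, 3.45, 3.63 and 3.17. In DBN the levels were 4.49, 6.80, 2.84, 3.67 and 3.98, and in BN 6.25, 6.26, 3.04, 3.67 and 3.65. SLC7A11 was thus above 5 on 8 of 25 arrays, all numbered 1 or 2, controls among them. HMOX1 ranged from 4.93 to 6.49 on those 8 arrays and from 5.55 to 6.60 on the other 17.

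On the same 8 arrays, genes that the transcription factor ATF4 switches on during amino acid and endoplasmic reticulum stress were high as well. The median of each of the 16 listed genes, ATF4 itself included, was higher there than on the other 17. Of the 16, 12 had no overlap in level between these sets of arrays. The sets were split on SLC7A11, which itself had r = 0.982 with the mean of these genes over the 25 H1299 arrays. The share of all features without overlap between the sets was not determined, so the 12 cannot be set against it. The ranges overlapped for ATF3, DDIT3, DDIT4 and VLDLR; DDIT3 ran from 2.89 to 6.92 on the 8 arrays and from 2.34 to 3.36 on the others. ASNS, asparagine synthetase, ranged from 10.82 to 11.66 there and from 8.14 to 10.14 on the other 17. CHAC1, a glutathione-degrading enzyme, ranged from 6.40 to 7.56 against 2.94 to 4.55. SLC3A2, the partner chain of SLC7A11 in the cystine importer, ranged from 5.80 to 6.73 against 4.37 to 5.14. Without the arrays numbered 1 and 2, the members called stayed at 0 in each of the 4 comparisons of H1299 exposed cells with controls. The part of these arrays in the H1299 spread was not tested further.

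**Figure D4:**
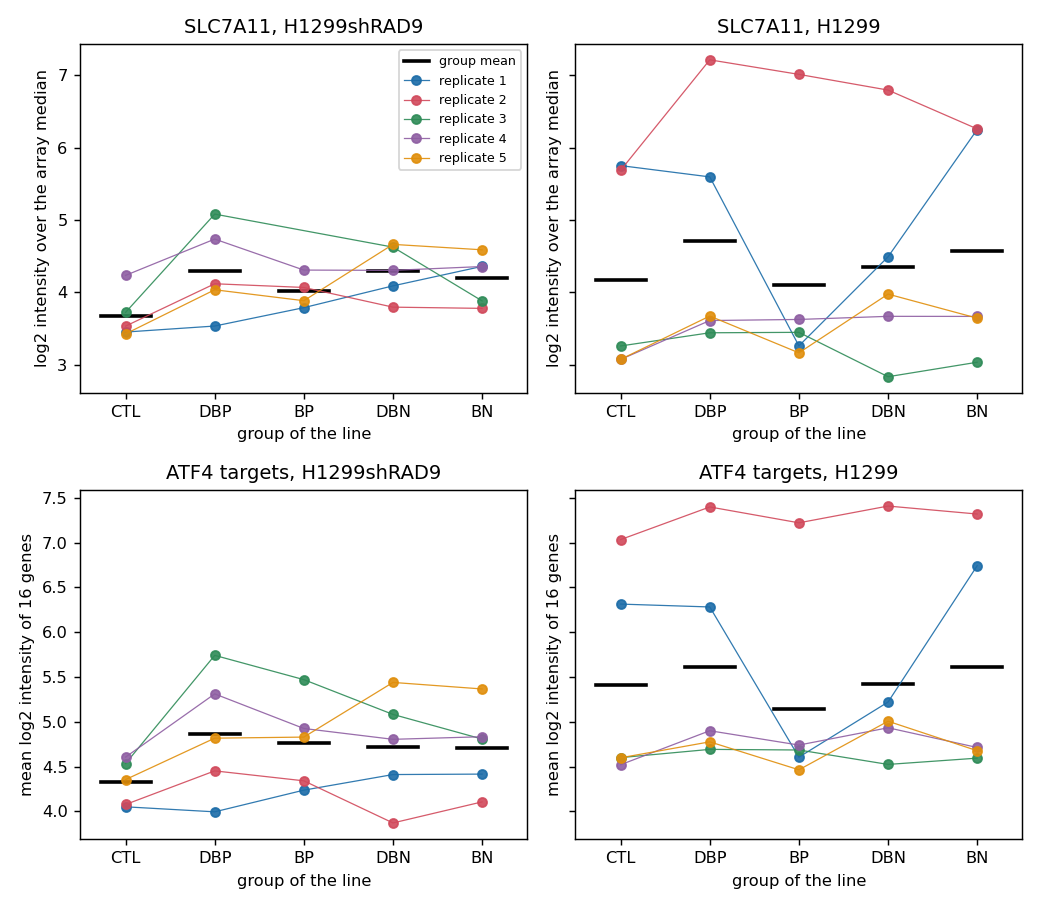
SLC7A11 (top) and the mean of 16 ATF4 target genes, ATF4 itself included (bottom), on each array of H1299shRAD9 (left) and H1299 (right), as log2 intensity over the array median. Points are samples, lines join replicate numbers and black bars are group means. In H1299, replicate 2 lies high in every group for both quantities and replicate 1 in CTL, DBP and BN, with SLC7A11 up to 7.21.

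Genes around the members were taken from 6 lists. Of 10 regulators of NRF2, 3 were tested, and KEAP1 and BACH1 were not among them. The tested regulators and the other NRF2 targets (14 of 29 tested) had 0 calls by limma in each comparison of exposed cells with controls in both lines. Their list medians in H1299shRAD9 were 0.01 to 0.10 and 0.04 to 0.11. Genes of heme and iron handling (9 of 12 tested) and other antioxidant enzymes (5 of 19) likewise had 0 calls. FTL, the ferritin light chain, was 0.39 (SE 0.10) higher in H1299shRAD9 DBP, short of a call (limma adjusted p = 0.128), and higher in 5 of 5 pairs. Heat shock and metal stress genes (10 of 14 tested) had 0 calls, with medians from 0.02 to 0.33 in H1299shRAD9. Of all features 1.78, 2.34, 4.85 and 0.0492% were called in DBP, BP, DBN and BN of H1299shRAD9, and at most 0.0574% in H1299. For lists this short 0 calls is near those shares.

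The ATF4 targets were the list with calls between exposed and control cells. Calls numbered 2, 2, 3 and 0 of 16 in H1299shRAD9 DBP, BP, DBN and BN, beside 1.78, 2.34, 4.85 and 0.0492% of all features. In H1299shRAD9 all 16 tested were above 0 in each of the 4 groups, with medians of 0.55, 0.35, 0.47 and 0.29 for DBP, BP, DBN and BN. CHAC1 rose by 1.63, 1.18 and 1.54 in DBP, BP and DBN (limma adjusted p = 0.0854, 0.0762 and 0.063), and ASNS rose by 0.58, 0.49 and 0.56 (0.0948, 0.0793 and 0.0883). The ASNS value in DBN came from 4 pairs because 1 spot was left out. TRIB3, a pseudokinase induced by ATF4, rose by 0.49 in DBN (0.0969). Without the pairing the limma adjusted p was 0.188 to 0.913 and 0 of these 7 calls remained. Leaving out any 1 of the 5 replicates ended the calls of ASNS in BP and DBN and of TRIB3. Those of ASNS and CHAC1 in DBP held only without replicate 1, that of CHAC1 in BP only without replicate 3, and that of CHAC1 in DBN only without replicate 2 or replicate 5. In H1299 the list had 0 calls and 12, 2, 9 and 16 of its 16 genes were above 0 in DBP, BP, DBN and BN, where 52, 37.6, 33.1 and 37.2% of all features were. The H1299shRAD9 shares of all features above 0 were 53.5, 50.7, 45.9 and 48.7%. In H1299 replicate 1 the mean of the 16 genes was 6.31 in the control and 4.61 in BP, and its part in the low BP count was not tested.

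Between the control cells of the lines 15.5% of all tested features were called by limma, and 0 of the 10 tested members. Unadjusted limma p was under 0.05 for 0 members, beside 39.3% of all features. No slide held controls of both lines, so cell line and slide cannot be told apart in this comparison. Nor can RAD9 reduction, vector and puromycin selection, since the H1299 cells were untransfected. HMOX1 differed by 0.14 (SE 0.30), SLC7A11 by -0.50 (SE 0.52) and GCLM by 0.36 (SE 0.17), H1299shRAD9 minus H1299. SLC7A11 stood at 5.75 and 5.69 in the H1299 controls of replicates 1 and 2, and at 3.26, 3.08 and 3.08 in those of replicates 3 to 5. Of the other NRF2 targets, AKR1C3, GSTM3 and GSTP1 were called lower in H1299shRAD9, at -1.32, -0.63 and -0.55 on the log2 scale. Of the iron genes, TFRC, the transferrin receptor, was 1.37 higher and FTL differed by -0.74. Of the ATF4 targets NUPR1, DDIT4 and PHGDH were called, at -3.12, -1.91 and -1.36, and of the heat shock and metal stress genes MT1X and MT1E at -0.85 and -0.78 and DNAJB1 at 0.50. The mean of the 16 ATF4 targets in control replicates 1 to 5 was 6.31, 7.03, 4.60, 4.52 and 4.60 in H1299. In H1299shRAD9 it was 4.05, 4.08, 4.54, 4.61 and 4.36. The part of H1299 replicates 1 and 2 in these ATF4 target differences was not tested. The tested NRF2 regulators and other antioxidant enzymes had 0 calls by limma.

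On average HMOX1 was higher in directly irradiated cells than in the bystanders of the same number, short of a call. In H1299shRAD9 the difference was 0.32 (SE 0.15, 4 of 5 pairs) for DBP against BP and 0.37 (SE 0.14, 5 of 5 pairs) for DBN against BN. In H1299 the same differences were 0.16 (SE 0.21) and 0.17 (SE 0.20). The limma adjusted p was 1 for both in H1299shRAD9, and 0.821 and 1 in H1299. Called features made up 0.0985 and 0.131% of those tested in H1299shRAD9 and 0% in H1299, with 0 members called. Of all features, 4.64 and 2.6% had unadjusted limma p under 0.05 in H1299shRAD9, and 6.08 and 3.36% in H1299. Unadjusted p was under 0.05 for HMOX1 in H1299shRAD9 DBN against BN, for MAFG (0.50) in H1299 DBP against BP and for GCLM (-0.65, lower in 5 of 5 pairs) in H1299 DBN against BN.

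The outcome in the bystanders made no called difference to the members. HMOX1 differed by -0.09 (SE 0.69) for DBN against DBP and -0.13 (SE 0.58) for BN against BP in H1299shRAD9, and by -0.07 (SE 0.27) and -0.07 (SE 0.19) in H1299. In each of these 4 comparisons 0% of all features and 0 members were called by limma. Unadjusted limma p was under 0.05 for 1 member in all, NFE2L2, at -0.50 (SE 0.22) for DBN against DBP in H1299shRAD9. In that comparison 0.492% of all features were under 0.05, and the NFE2L2 probe lay below the array median on average. The 95% interval of the HMOX1 difference in H1299shRAD9 ran from -1.57 to 1.40 for DBN against DBP and from -1.40 to 1.14 for BN against BP. Arrays of DBN and DBP with the same number deviated together in 5 of 5 pairs in each line. With replicate number as a block, the interval for DBN against DBP was -0.76 to 0.58 (SE 0.30) in H1299shRAD9 and -0.47 to 0.34 (SE 0.19) in H1299.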

How the data were processed

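Cy3-labelled RNA of 50 samples was hybridised by the authors to Agilent 4x44K arrays, 1 sample per array on 13 slides, and the deposited files hold Feature Extraction intensity values (background-subtracted processed signal, mean signal and background) per spot. The authors' deposited value table holds log2 intensities of the same arrays. It matched the scanner log2 values with a correlation of at least 0.9994 per array apart from a constant offset (-1.34 to 1.08), so its centring stays unknown. Column medians ran from 8.86 to 9.30. It served as an alternative, with 9476 features and 9 of the 11 member probes.

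Following the study's methods, log2 processed intensities were averaged over spots without an outlier mark and centred on the array median. A feature was kept if its signal failed the background mark on under 25% of arrays, which left 20079, and if at least 20% of arrays deviated from its median by 1.3-fold, which left 12186. The study reports fewer features after each filter, so its feature set was not reproduced. Calls and adjusted p depend on that set and are not those of the study. Each of the 21 comparisons was fitted with limma 3.58.1 in R 4.3.3, with replicate number as a block for exposed against control cells, interactions and direct against bystander cells. The numbers pair the samples per the study's paired test; deviations of same-numbered arrays correlated in 5 of 5 pairs (all over 0.1) in the 4 H1299shRAD9 comparisons with controls and in H1299 DBP and BN, but in 3 of 5 pairs in H1299 BP and DBN. Between direct and bystander cells this held for 5 of 5 pairs in both H1299shRAD9 comparisons. In H1299 it held for 4 of 5 pairs in DBP against BP and 3 of 5 in DBN against BN. Nothing in the labels says how the replicates arose, so p-values measure the spread between these samples. The number of arrays limits the precision.

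The members and the 6 gene lists were chosen with earlier results of these data known. All members were named. Other genes were named where called, at most 4 per list, along with the 5 genes of highest correlation with HMOX1 and a few whose values bear on a member and were chosen after they were seen (FTL, SLC3A2, ASNS and CHAC1 in H1299). Some items of the lists and markers are not reported here. The fits were tested on simulated data. Alternatives covered scaling, background correction, filters, test, block, slide and the omission of replicates. The aligned build of the probes is hg19 per the file headers. Promoter sequences are from RefSeq, GRCh38.p14.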

Additional observations from a re-analysis of the deposited data

Results flagged for a closer look

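In a group of 5 samples a value was picked out where its gap to the nearest other sample exceeded 0.71 of the group's range, Dixon's 95% value. This held for 7 of 109 groups of member levels (6.42%), and chance alone picks out about 1 in 20. SLC7A11 measured 7.01 in H1299 BP replicate 2, next to 3.63, with the ATF4 targets high on the same array. In H1299 the other such values were MAFG at 7.28 in DBN replicate 2, GCLC at 4.77 in DBP replicate 2 and GCLM at 7.90 in DBP replicate 1. In H1299shRAD9 they were GCLC at 3.69 in DBP replicate 1 and NFE2L2 at -1.32 in BN replicate 5 and at -0.24 in DBP replicate 4. HMOX1 in H1299shRAD9 DBP replicate 3, at 9.57, was not among them.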

How the results depend on the processing

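The differences from controls, between the cell lines and in the interactions that had an unadjusted p under 0.05 came to 30, and 18 alternatives gave 540 values, of which 536 kept the sign. The 4 that turned were all in H1299 BN under normexp background correction, where HMOX1 was -0.41, GCLM -0.58, TXNRD1 -0.22 and SLC7A11 -0.32, while the median of all features moved to -0.71. With or without each alternative, HMOX1 in the 4 H1299shRAD9 comparisons with controls ranged from 0.58 to 1.81. In H1299shRAD9 DBN, members called went from 2 to 4 with quantile normalization, to 3 with normexp and to 0 with the background mark for a positive and significant signal, with no filter, with no replicate block, with slide as a fixed block (which then rests on 1 slide) and without the arrays numbered 1 and 2, a setting chosen after seeing the data. With no replicate block the calls over all features went from 217 to 14 in DBP, 285 to 0 in BP and 591 to 107 in DBN. The background mark for a positive and significant signal, and no filter, each gave 0 in these 3 comparisons, and slide as a fixed block gave 1, 0 and 8. Leaving out 1 replicate gave 0 to 735, 0 to 199 and 22 to 674, so the shares of features called in H1299shRAD9 are unstable. In BN all groups in one fit gave 555 in place of 6. Members called in DBP were 2 with normexp and 2 with all groups in one fit, those in BP 2 with normexp. Leaving out 1 replicate at a time gave 0 to 3 in DBP, 0 to 1 in BP and 0 to 1 in DBN. Between the control cells 1 member, MAFG, was called without the arrays numbered 1 and 2. In H1299shRAD9 DBN against DBP, slide as a fixed block gave 4 called members (HMOX1, TXNRD1, SRXN1 and MAFF), HMOX1 at -3.67, from 1 array of each group on 1 slide, DBP replicate 3 and DBN replicate 2. The other alternatives, the random-variance test included, left 2 members called in H1299shRAD9 DBN and 0 in each other comparison.

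The labels give no extraction or culture date, so slide is the only batch known, and it was not balanced over groups. No slide held control arrays of both lines. Member probes were marked well above background on 49 or 50 of 50 arrays.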
